A study of Caenorhabditis elegans with 4 samples.

Results

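The peaks described here are those that chromatin immunoprecipitation and sequencing (ChIP-seq) of ZIM-1 placed in the central part of chromosome IV of Caenorhabditis elegans. They were chosen by position alone: a peak of the series-wide list was a member when its midpoint lay above base 3000000 and at or below base 14493000 of chromosome IV on WormBase release WS220. This interval of 11.493 Mb held 1018 of the 9439 peaks of that list, 624 of the 5552 peaks of ChIP replicate 1 and 301 of the 2887 peaks of ChIP replicate 2. The 2 ChIP libraries and the 2 input libraries, of genomic DNA that was not immunoprecipitated, all came from hermaphrodites of the strain fem-2(b245) with the genotype fem-2(b245)III at 20 °C. The labels give the stage as young adult with a germline, while their growth protocol describes synchronized cultures of 400 mL grown until the worms were gravid. Fixation was in 1% formaldehyde for 10 min for all libraries. The antibody was an affinity-purified rabbit polyclonal against ZIM-1. The labels do not state whether separate cultures were used for the replicates, so differences between them may be technical, and input values were not analysed here.

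ZIM-1 belongs to a small family of zinc finger proteins, with ZIM-2, ZIM-3 and HIM-8, that bind the meiotic pairing centers, the chromosome regions where homologs recognize each other and start synapsis in the germline. ZIM-1 is known for the pairing centers of II and III, and that of IV, near its left end, is known as a target of ZIM-3. The RefSeq gene table of assembly WBcel235 lists zim-1, zim-2, zim-3 and him-8 on chromosome IV. The central part of a worm autosome is gene-rich and recombines little, whereas the arms are richer in repeats and recombine more. The gene fem-2 acts in sex determination, and b245 is a temperature-sensitive allele that feminizes the germline at restrictive temperature.

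The interval is bounded by position and not by any feature of the peaks. Just inside its left edge lay a peak from 3000727 to 3001052 with a series-wide score of 4.41 and a peak from 3001269 to 3001581 with a score of 6.33. Just outside lay peaks starting at 2996849 and 2999026, with scores of 7.42 and 7.74. On the right, the last members started at 14468569, with a score of 4.11, and at 14475797, with a score of 174.44, and the first peaks beyond the edge started at 14525744 and 14532335, with scores of 7.37 and 6.58. The score is the authors' own, as their peak caller gave it without a stated unit, and is compared within a list only.

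The first comparison asked whether the centre of IV was as densely marked as the rest of the chromosome and as the centres of the other autosomes. It held 88.6 series-wide peaks per Mb (95% Poisson interval 83.2 to 94.2), against 137.1 per Mb (127.9 to 146.8) in the outer 3 Mb at both ends of IV together, a ratio of 0.65. In replicate 1 the values were 54.3 in the centre and 82.7 per Mb at the ends, a ratio of 0.66, and in replicate 2 they were 26.2 and 38.99 per Mb, a ratio of 0.67. The centre was thus the sparser part of IV in both replicates. The contrast lay mainly with the left end, which had 179.7 series-wide peaks per Mb (164.8 to 195.5), whereas the right end had 94.6 (83.95 to 106.3), an interval that overlaps that of the centre. The intervals count peaks as independent and cover counting error only, and peaks cluster, so no test of these differences was made.

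Set against other chromosome centres, bounded in the same way at 3 Mb from both ends, the centre of IV took a middle place. The centres of I, II, III and V together had 83.8 series-wide peaks per Mb (81.03 to 86.7), a ratio of 1.06 for IV over them. In replicate 1 the centre of IV had 54.3 peaks per Mb and those centres 46.8, a ratio of 1.16, and in replicate 2 the centre of IV had 26.2 and those centres 25.5, a ratio of 1.03. Counting only peaks that recurred in both replicates gave 0.95, so the direction depended on which peaks were counted. In the series-wide list IV came after III with 104.6 and I with 101.96 peaks per Mb, and before II with 71.3 and V with 69.7. In replicate 1 the order near IV was different, with 55.7 on I, 54.3 on IV and 53.3 on III, which lie within each other's intervals. The centre of X was sparser in every list, with 36.95 peaks per Mb in the series-wide list. Peaks covered 4.25% of the centre of IV, against 5.92% of its ends and 3.98% of the centres of I, II, III and V.

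**Figure D1:**
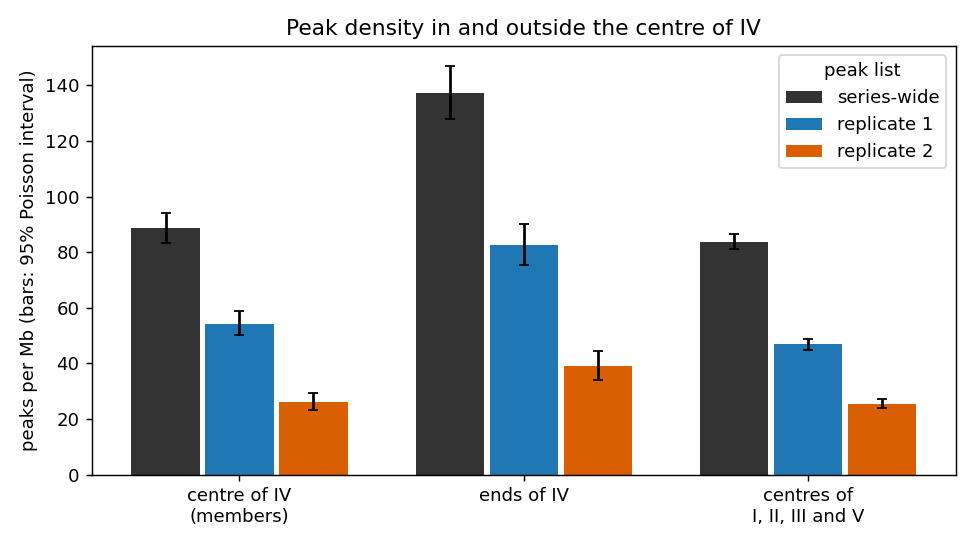
Peaks per Mb (vertical axis) in the centre of IV, the ends of IV and the centres of I, II, III and V, as bars for the series-wide list and each replicate list, with 95% Poisson intervals. In every list the centre of IV is below the ends of IV, at 88.6 against 137.1 peaks per Mb in the series-wide list, and close to the other centres at 83.8.

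Density varied along the interval. In bins of 1 Mb the series-wide list had its densest bins from 4 to 5 Mb, with 128 peaks, and from 13 to 14 Mb, with 126 peaks. The bin from 8 to 9 Mb came next, with 108 series-wide peaks, 57 in replicate 1 and 37 in replicate 2. The sparsest series-wide bins ran from 10 to 11 Mb, with 50 peaks, and from 6 to 7 Mb, with 54 peaks. Replicate 1 had 78 peaks in each of the 2 densest bins, and 23 and 35 in the sparse ones. Replicate 2 had 38 and 39 peaks in the 2 densest bins and 14 in the bin from 10 to 11 Mb, but 27 in the bin from 6 to 7 Mb, where it was above its own median of 24.5 per Mb. Right of the midpoint of the interval there were 86.3 series-wide peaks per Mb (78.9 to 94.3), against 90.8 per Mb (83.2 to 98.98) left of it. This ratio of 0.95 was 0.91 in replicate 1 and 0.93 in replicate 2. The counting intervals of the 2 sides overlapped in all 3 lists.

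**Figure D2:**
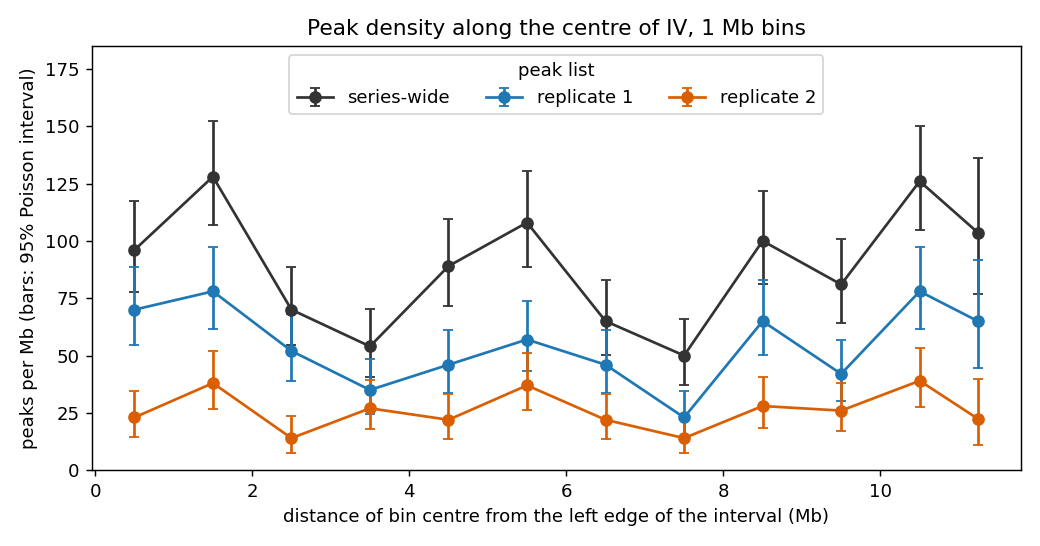
Peaks per Mb (vertical axis) in 1 Mb bins along the centre of IV, by distance from the left edge of the interval (horizontal axis, Mb), for the 3 peak lists, with 95% Poisson intervals; the last bin covers 0.493 Mb. The bins at 1 to 2 Mb and at 10 to 11 Mb from the edge are the highest in the series-wide list, with 128 and 126 peaks, and the bin at 7 to 8 Mb is the lowest, with 50.

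At a finer scale, the midpoints in each 100 kb window were set against the chromosome mean, which was 10.5 peaks per window on IV. Of 115 windows in the centre of IV, 5 passed the exact Poisson test with Benjamini-Hochberg adjustment over all 1005 nuclear windows, a share of 4.35%, against 8.76% of all nuclear windows. The ends of IV had 12 of 60. A share below the background is no sign of particular clustering in the centre, and the mean of IV includes its dense left end. The 5 windows lay from 3.3 to 3.4 Mb with 27 peaks (exact Poisson test, adjusted p = 0.00047), from 4.7 to 4.8 Mb with 25, from 4.1 to 4.2 Mb with 24, from 7.5 to 7.6 Mb with 23 and from 13.3 to 13.4 Mb with 22. Of these windows 3 also passed in replicate 1 and 0 in replicate 2. The first window had 20 peaks in replicate 1 and 7 in replicate 2. Windows on IV varied 5.04 times more than a Poisson process. With a negative binomial expectation of the same spread, none of the central windows passed (0 of 115, and 0% of all nuclear windows), and an unadjusted p under 0.05 was seen in 2 of them, against 12 with the Poisson test.

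At the other extreme, the window from 3.8 to 3.9 Mb held 0 series-wide peaks, and 6 windows, starting at 3.9, 5.8, 6.2, 6.6, 7.2 and 10.4 Mb, held 1 peak each. The longest stretch without a series-wide peak ran for 173.1 kb, from 3771492 to 3944576, and 2 peaks of replicate 1 and 0 of replicate 2 lay in it. The next ran for 121.3 kb from 10425411 to 10546664, with 1 peak of replicate 1 and 0 of replicate 2. The third ran for 103.6 kb from 7148884 to 7252509, with 0 peaks in both replicates. The median distance between adjacent peaks was 2.58 kb, against 2.14 kb at the ends of IV and 2.91 kb in the centres of I, II, III and V.

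Neighbouring peaks often lay close together, as they did in other parts. Gaps under 1 kb made up 37.5% of those between adjacent members. The share was 37.6% in the centres of I, II, III and V and 35.3% at the ends of IV. When peaks less than 1 kb apart were joined, the 1018 members formed 637 groups, of which 422 held 1 peak and 17 held 5 or more. The largest group had 8 peaks in 5.59 kb, from 4467812 to 4473398, with 2 peaks found in both replicates, 3 in replicate 1 alone and 3 in neither. It was followed by 7 peaks from 11566127 to 11570249 and 6 peaks from 4181410 to 4185234. A group of 2 or more peaks held a peak found in both replicates in 105 of 215 cases, or 48.8%, while 105 of the 422 lone peaks were found in both, or 24.9%. A group has more chances to hold such a peak than a lone peak has, so the 2 shares are given as counts only. Some members shared a replicate peak: 99 members met 46 replicate 1 peaks between them, and a replicate 1 peak from 14210774 to 14215445 alone met 4 members.

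The second comparison asked how many of the members recurred in both ChIP replicates, where any overlap of 1 bp or more counted. Of the 1018 members, 242 were found in both replicates, or 23.8% (95% Clopper-Pearson interval 21.2 to 26.5), against 25.9% of all 9436 nuclear peaks. Another 377 (37.03%) met a peak of replicate 1 only, 39 (3.83%) a peak of replicate 2 only, and 360 (35.4%) met none. In the centres of I, II, III and V 26.5% of peaks were found in both, 30.6% only in the list of replicate 1, 5.61% only in that of replicate 2 and 37.3% in neither. The share found in both was close to the background, and the differences were not tested.

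Taken from the replicate lists, 246 of the 301 central replicate 2 peaks overlapped a replicate 1 peak, or 81.7% (76.9 to 85.9), against 84.2% of all nuclear replicate 2 peaks and 85.03% in the centres of I, II, III and V. In the other direction 245 of 624 central replicate 1 peaks overlapped a replicate 2 peak, or 39.3% (35.4 to 43.2), against 43.9% of all nuclear replicate 1 peaks and 47.1% (44.8 to 49.3) in the other centres. Replicate 1 peaks that recurred had a median score of 432 and a median width of 676 bp, and those that did not had 99.6 and 406 bp. For replicate 2 the medians were 293 and 619.5 bp for peaks that recurred and 107.8 and 495 bp for the rest. Across the 246 overlapping pairs, Spearman's rho between replicates was 0.74 for the scores and 0.73 for the widths. Across the pairs elsewhere in the nuclear genome the values were 0.71 and 0.69. These describe peaks of the same 2 libraries and are not a test.

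Score and recurrence went together. Members found in both replicates had a median series-wide score of 44.5 (interquartile range 22.7 to 97.7) and a median width of 657 bp (430 to 1108). The medians were 7.29 and 313 bp for members in replicate 1 alone, 12.2 and 341 bp for those only in replicate 2, and 4.53 and 193 bp for those in neither. Over all nuclear peaks the median scores of these classes were near those of the members. They were 40.4 for both replicates, 7.54 for replicate 1 alone, 10.9 for replicate 2 alone and 4.83 for neither. When all nuclear peaks were ordered by score and split into deciles, with ties broken by position, the highest decile, from 54.75 upward, held 102 members. That is 10.02% of them, against 10% of all nuclear peaks. All of these 102 were found in both replicates, a share of 100% (96.4 to 100). Outside the centre of IV the share in that decile was 99.9% (99.3 to 99.997). In the next decile the share was 83.1% (73.7 to 90.2), against 87.1% (84.7 to 89.3) for the peaks of the same decile outside the centre of IV. In the decile from 14.13 to 23.41 it was 51.2% (39.9 to 62.4) against 42.97% (39.6 to 46.4), and in the decile from 10.06 to 14.13 it was 13.3% (7.08 to 22.1) against 15.1%. Below a score of 6.33 at most 2 members of a decile were found in both. The scores used for the split come from the same libraries as the replicate lists, so this rise is a description.

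**Figure D3:**
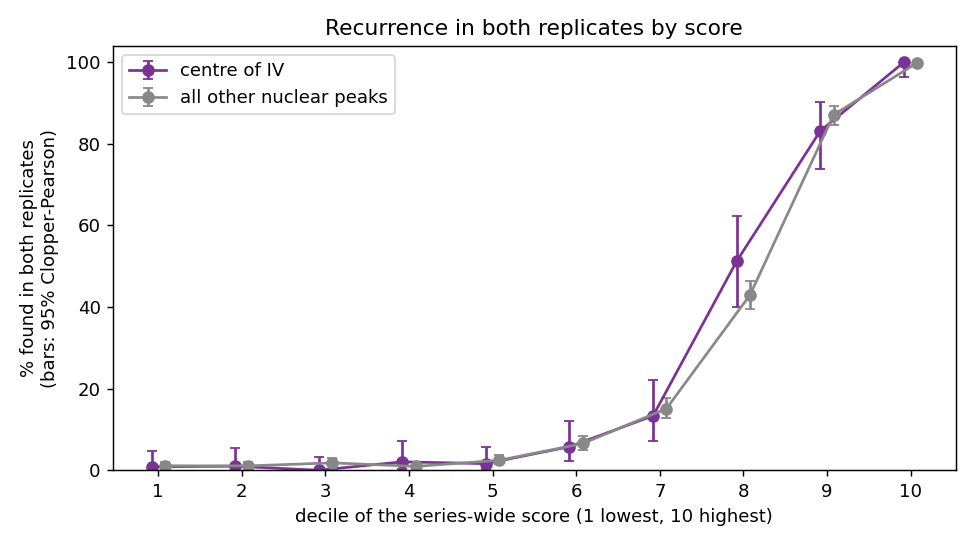
Percent of series-wide peaks that recurred in both replicates (vertical axis, 95% Clopper-Pearson intervals) by decile of the series-wide score (horizontal axis), for the centre of IV and for all other nuclear peaks. Both lines stay near 0 in the lowest 5 deciles and climb through 51.2% and 42.97% in decile 8. In the highest decile they reach 100% in the centre of IV and 99.9% in the other peaks.

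The members at the top of the score range were few and wide. Of the 1018 members 14 were tied at 174.44, the highest score of the list, or 1.38% (0.75 to 2.30), against 0.827% of all nuclear peaks. All 14 were found in both replicates, and in 12 of them the overlapped peak had a score of 3100, the tied value of the replicate lists, in both. The share with 3100 in both was not computed for tied peaks elsewhere. In the highest decile, 841 of 842 peaks outside the centre of IV were also found in both, and the scores come from the same libraries. Recurrence is thus not particular to the 14 sites. Their widths ran from 1286 to 5494 bp with a median of 2166.5 bp, against 296.5 bp for the other members, and they made up 7.95% of the bases in members. The ends of IV held 11 such peaks, 4 on the left and 7 on the right, which gave 1.22 per Mb in the centre and 1.83 per Mb at the ends. The count in the centre depended on its edge: it was 20 with edges at 2 Mb from the chromosome ends and 8 with edges at 4 Mb. The centres of other autosomes held 17 on V, 3 on I, 2 on II and 0 on III, together 0.54 per Mb. This pooled value hides a spread between chromosomes. The centre of V held 17 tied peaks in 14.924 Mb, against 14 in 11.493 Mb on IV, so a high count was not particular to IV.

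Along the interval, 5 of the 14 sites lay left of the midpoint and 9 right of it, and 6 lay beyond 13 Mb. The widest site ran from 14475797 to 14481290, a width of 5494 bp, and the replicates placed it at nearly the same bases, with peaks of 5348 bp in replicate 1 and 5609 bp in replicate 2. The next ran from 4920599 to 4925762. Replicate 1 had there 1 peak of 5201 bp, whereas replicate 2 had 2 peaks, from 4920575 to 4923267 and from 4923520 to 4925463, both with a score of 3100. Only 69 bp further began the tied site from 4925832 to 4928080, which met 1 peak in each replicate.

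The site from 8466927 to 8471907 was 4981 bp wide in the series-wide list, 5031 bp in replicate 1 and 4965 bp in replicate 2. The site from 12021785 to 12025645 was 3861, 3711 and 3650 bp wide in the same order of lists. For both, the 3 lists gave nearly the same width. The sites from 3670372 to 3672003, from 7440952 to 7442237 and from 9409894 to 9412354 were 1632, 1286 and 2461 bp wide and lay far apart, the last of them followed by 2.61 Mb with no tied peak.

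Near the right edge, tied sites lay from 13462203 to 13465337, from 13845687 to 13847666, from 13881404 to 13882794, from 13883346 to 13885429 and from 14217750 to 14219271. The site starting at 13881404 was the only tied member below 3100 in both replicates, with 2287.57 in replicate 1 and 2775.6 in replicate 2. The site from 12155004 to 12156558 met the peak with the highest score of replicate 2 in the interval, 3177.24, although that peak was narrow, at 857 bp. Among replicate peaks at or above 3100, all 24 of replicate 1 in the interval were found in replicate 2, and 22 of the 24 of replicate 2 were found in replicate 1. Outside the centre of IV, 1 of 212 such peaks of replicate 1 was not found in replicate 2. The full match of replicate 1 in the interval was thus near the background. Of such replicate 2 peaks outside the centre of IV, 4 of 204 were not found in replicate 1. The 2 central replicate 2 peaks not found adjoin each other in the block from 8572520 to 8582017 described below, and this difference was not tested.

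**Figure D4:**
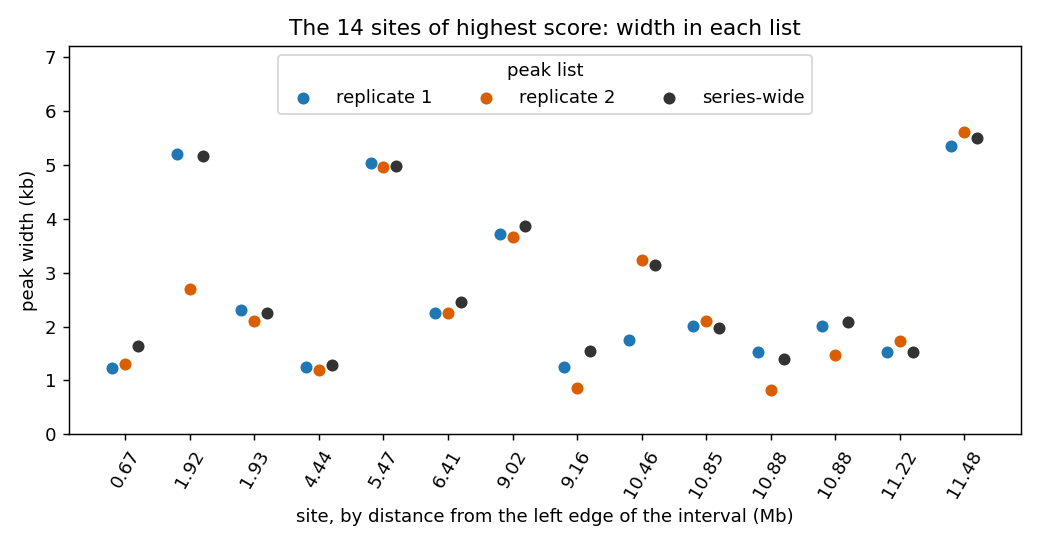
Width in kb (vertical axis) of the 14 members tied at the highest score, in replicate 1, replicate 2 and the series-wide list, ordered by distance from the left edge of the interval (horizontal axis, Mb). For each replicate the overlapping peak with the highest score is shown. At 1.92 Mb the replicate 2 peak of 2693 bp is 1 of 2 on the site, and at 10.46 Mb the replicate 1 peak of 1756 bp is 1 of 2. The replicate 1 peaks of 1230 bp at 0.67 Mb and 1251 bp at 9.16 Mb are also each 1 of 2. Sites starting at 13881404 and 13883346 both lie at 10.88 Mb. The first has 1526 bp in replicate 1 and 825 bp in replicate 2. The second has 2002 bp and 1471 bp, and its replicate 2 peak is 1 of 2 on the site.

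Wide peaks were not always among the highest-scoring, although few had low scores for this list. Of the 51 members at or above the 95th percentile of width, 1330 bp, 43 were found in both replicates. Of the 51, 13 were tied at the highest score, while 20 had scores below the median of members found in both. The same counts were not made for wide peaks elsewhere, so they are not read as particular to the centre of IV. The lowest score among the 51 was 7.21, close to 7.37, the median of all members. Among the 5 widest members, 3 were tied sites already given. The widest of the others ran from 4416396 to 4421593, a width of 5198 bp, with a series-wide score of 17.3. Replicate 2 had there a peak of 5801 bp with a score of 2125.22, and replicate 1 had 0 peaks. The remaining one ran from 11070841 to 11075934, 5094 bp wide, with a score of 44.1. The replicates gave it like widths, 5190 bp in replicate 1 and 5254 bp in replicate 2. In replicate 1 its score of 345 was below 432, the median of central replicate 1 peaks that recurred, and in replicate 2 it was at the tied value of that list. Across all members, score and width had a Spearman rho of 0.65, and among those found in both replicates 0.35. For peaks elsewhere in the nuclear genome the values were 0.60 and 0.34.

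**Figure D5:**
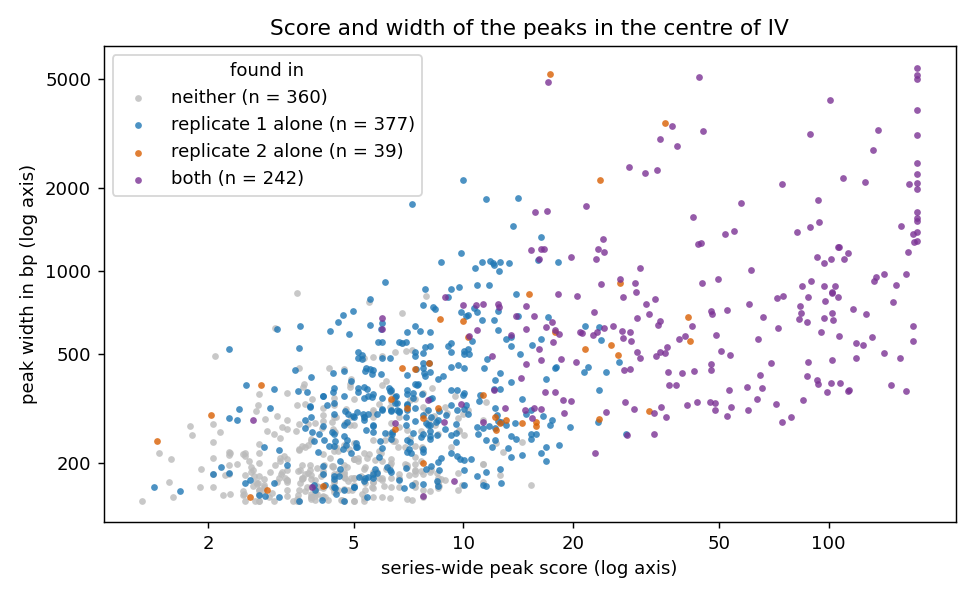
Width in bp against series-wide score of the 1018 members (both axes logarithmic), coloured by the replicates in which each was found. Members found in neither replicate sit at the lower left, with a median of 4.53 and 193 bp, those found in both spread to the right, with a median of 44.5 and 657 bp, and the 14 tied sites form a column at 174.44.

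The highest score among members in replicate 1 alone was 27.9, for a peak from 5541342 to 5541597 that met a replicate 1 peak with a score of 133.7. The highest among members found in neither replicate was 15.3, for a peak of 166 bp from 10858365 to 10858530. The widest member in replicate 1 alone ran from 12509865 to 12512002 with a score of 10.0, and the widest in neither from 7594560 to 7595391, 832 bp wide, with a score of 3.49. The scores of these 4 peaks were all below 44.5, the median of members found in both replicates.

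In replicate 2 alone the highest series-wide score was 41.7, for a member from 8665582 to 8666139 whose replicate 2 peak scored 609.59. Of the 39 members found in replicate 2 alone, 14 lay between 8 and 9 Mb, a bin that held 108 of the 1018 members. The 39 met 36 distinct replicate 2 peaks and the 14 met 11, so some members share a replicate peak. Of the 14, 6 belonged to a block from 8572520 to 8582017, which was singled out after its values were seen. Replicate 2 had 3 adjoining peaks there, with scores of 1062.77, 3100 and 3100 and widths of 1643, 3939 and 3834 bp, which between them left few bases of the 9.50 kb uncovered. Replicate 1 had 0 peaks in the block. The series-wide list had 6 peaks in it, with scores of 10.3 to 41.1, against a median of 7.37 over all members. The block's peaks of 3100 were the 2 replicate 2 peaks at or above that score which replicate 1 lacked.

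A longer tract, also chosen after its values were seen, ran for 59.01 kb from 6668746 to 6727755. Replicate 2 had 12 peaks in it, with scores from 68.1 to 366 and widths from 361 to 2514 bp. Replicate 1 had 0 peaks there, and the series-wide list had 2, with scores of 2.6 and 4.12. The strongest of the 12, from 6688975 to 6691488 with a score of 366.04, had no counterpart in either of the other lists. This tract held 10 of the 19 central replicate 2 peaks that overlapped no series-wide peak. Such peaks made up 6.31% (3.84 to 9.68) of the replicate 2 peaks in the centre of IV, against 1.16% (0.78 to 1.65) of those elsewhere in the nuclear genome. Without the tract the share was 3.11% (1.43 to 5.83). The intervals count peaks as independent, although 10 of the 19 lie in 1 tract. The share also varied elsewhere: 5 of 112 in the centre of X and 3 of 87 at the right end of IV. It was 9 of 1049 in the centres of I, II, III and V. For replicate 1, peaks missing from the series-wide list made up 6.09% (4.35 to 8.26) in the centre of IV and 4.53% (3.96 to 5.14) elsewhere. The replicate 2 tract is the stretch behind the count of 27 replicate 2 peaks between 6 and 7 Mb given above. Read depth and input signal in these stretches were not analysed here, and their part in the difference between the replicates was not tested.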

How the data were processed

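The authors deposited 3 peak lists, of ChIP replicate 1, ChIP replicate 2 and the series, with the first and last base and a score per peak on WS220, per the file headers. The source column of the deposited lists names MACS for the replicates and MACS v2 for the series, and the submitters' processing notes name BWA and ce10. Pooling, control and settings are not given in the sources used here, read depth is unknown, and scores were compared within a list only, apart from rank correlations. Peaks were counted, matched and described with Python 3.11.15, numpy 2.4.6, pandas 2.3.3 and scipy 1.17.1. Where a peak met several, the highest-scoring partner was taken. A chromosome's length was taken as the highest end coordinate of its peaks over the lists, and other centres were bounded 3 Mb from both ends, the upper bound cut to whole kb.

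Named sites were the tied, widest, edge and top single-list peaks, extreme windows, gaps and groups; the replicate 2 block and tract were added. The members and lists were chosen with earlier results of these data known. Alternatives were stricter overlap, higher-scoring peaks, single lists, other edges and window sizes. Sequence and genes under peaks were not analysed here, since coordinates were not carried between builds.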

Additional observations from a re-analysis of the deposited data

How the results depend on the processing

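No paired analysis was possible because the files used here were peak lists of the ChIP group, which held no input value to set beside the ChIP value of the same number. The ratio of the centre of IV to its ends stayed below 1 in all 7 alternatives: 0.66 to 0.67 with 1 replicate left out, 0.67 for peaks found in both, 0.72 for covered bases, 0.74 with 2 Mb ends and 0.66 with 4 Mb ends. The ratio to the centres of I, II, III and V was 1.03 to 1.16 with 1 replicate left out, and turned below 1 for peaks found in both, at 0.95, and in the higher-scoring 50%, at 0.998. The ratio of the right to the left of the midpoint was 0.91 to 0.93 with 1 replicate left out and 0.97 for peaks found in both. The share of members found in both was 20.5% with a required overlap of 50% of both peaks and 30.8% with the higher-scoring 50% of every list; with 1 replicate left out, 27.6% were found in replicate 2 and 60.8% in replicate 1. With the stricter overlap and the higher-scoring 50%, in that order, 69.4% and 86.2% of replicate 2 peaks were found in replicate 1, and 33.5% and 46.6% of replicate 1 peaks in replicate 2. The rho of scores was 0.84 with the stricter overlap and 0.67 for pairs below the tied score. The 5 dense windows became 6 with windows of 50 kb, 1 with fewer and larger windows of 200 kb, 0 to 3 with 1 replicate left out, 1 for peaks found in both and 0 against the negative binomial background; for the last the spread includes the clusters. The 14 tied sites became 20 with 2 Mb ends, which give a longer centre, and 8 with 4 Mb ends, which give a shorter one. The share of replicate 2 peaks missing from the series-wide list was 3.11% without the 59.01 kb tract, an alternative chosen after seeing the data. The cause of these changes was not tested, and with read depth unknown a missing peak cannot be read as absent binding.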
